A study of Homo sapiens with 28 samples.

Results

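The libraries titled ARID1A_AQGscramC1C2 are 2 of the 28 ATAC-seq libraries of the series, and they were compared here with the 4 libraries titled Empty_vector. ATAC-seq uses a transposase to cut and tag accessible DNA, so a peak marks an open stretch of chromatin. All cells were AN3CA, an established human endometrial carcinoma line, made to express either ARID1A, ARID1B, a mutant of one of them, or an empty vector. The members were chosen by title alone, and they are called the scram and the vector libraries below. The labels do not say whether any group is a clone, nor whether replicates are separate cultures. The p-values therefore measure the spread between these libraries alone, and that spread may be technical.

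ARID1A and ARID1B are large subunits of the canonical BAF (cBAF) complex, a chromatin remodeler that uses ATP to move nucleosomes and so opens enhancers and promoters. A complex holds one or the other. Both proteins carry long intrinsically disordered regions (IDRs), stretches without a fixed fold that can drive condensation, and an ARID domain that binds DNA. A, Q and G are the one-letter codes of alanine, glutamine and glycine, and "scram" in the title names a scrambled order. The labels give no further description of the construct. Each region below is given by its hg19 position, and no hg19 gene annotation was used, so regions carry no gene names unless stated.

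The genotype label of both scram libraries names the empty vector, whereas the title and the names inside the peak lists name the construct. This conflict occurs in 10 libraries of 5 constructs. The date code in the peak names also differs, since both scram libraries share a code that no other library has, whereas vector 1 and vector 2 have a code each and vector 3 and vector 4 share another. The construct and its date code cannot be told apart in any comparison below. The vector libraries were therefore also compared with each other, which shows how far lists of one group lay apart.

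Peaks at one place on chromosome 1 were read as a check of the labels. Peaks of the 2 ARID1A_WT (wild type) and the 2 ARID1A_DBDmut (ARID domain mutant) libraries were merged into 84794 regions. Of these, 602 were covered to at least 50% in all 4 lists and to less in each of the 10 ARID1B libraries. They held 1 cluster of at least 3 regions with gaps of at most 100 kb, which has 4 regions at chr1:27056165-27059197, chr1:27087381-27089708, chr1:27097671-27101542 and chr1:27105625-27107234. As background, hg19 places ARID1A itself there. Neither the scram nor the vector lists took part in this choice, although the place had been seen before the rule was written.

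In the third region, scram peaks covered 60.2% and 65.3% of the length, with a highest fold enrichment of 3.04 and 3.64. In the fourth, they covered 92.9% and 86.0%, with a fold enrichment of 3.90 and 4.88. Vector 1, 2 and 4 covered none of the third region and 12.7%, 0% and 0% of the fourth. Both scram libraries lay above these 3 in both regions, and vector 3 is described below. The first region held no scram peak, and scram 1 covered 9.45% and scram 2 none of the second. The 2 libraries of ARID1A_delIDR1 (a truncation mutant) and the 2 of ARID1A_DDX4 (a hybrid IDR mutant) had no peak in the first 2 regions and covered at least 69.6% of the third and 95.5% of the fourth. Those of ARID1A_Y42S had none there either, and covered 58.0% and 21.7% of the third and 88.3% and 83.1% of the fourth. The ARID1A_CBR (another truncation mutant) libraries covered 3.49% and 0% of the third and 100% and 99.6% of the fourth. What the absence in the first 2 regions reflects was not tested.

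**Figure D1:**
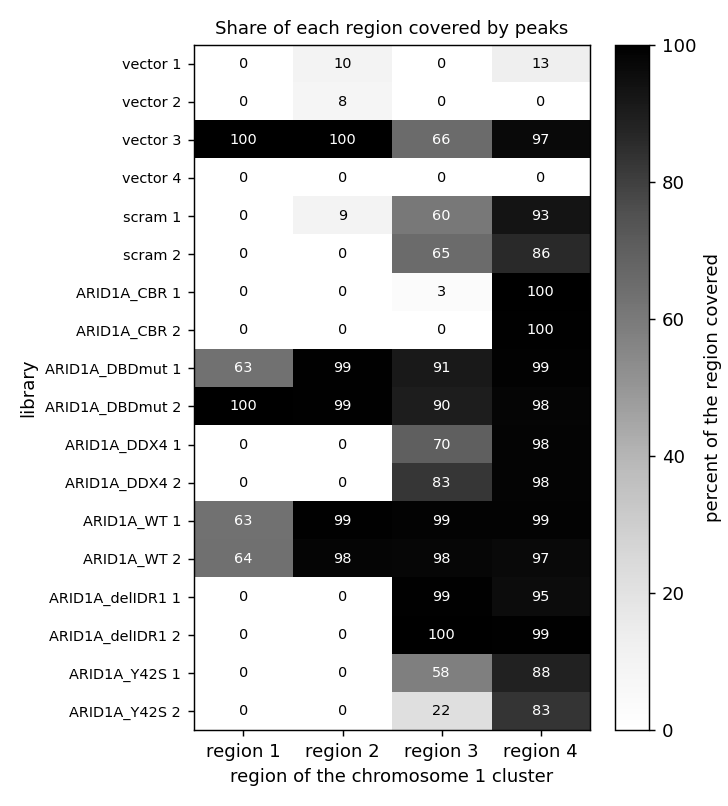
Percent of each of the 4 chromosome 1 regions covered by peaks, for every ARID1A and vector library (rows; whole lists; darker is more). Both scram libraries cover regions 3 and 4 and not region 1, and vector 3 covers all 4 while the other vector libraries cover at most 12.7% of any.

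The library labelled vector 3 went against its label at the same place. Its peaks covered 100% of region 1, 100% of region 2, 65.5% of region 3 and 96.8% of region 4. Their highest fold enrichment was low, at 2.99, 2.83, 2.25 and 2.54 in regions 1 to 4. In the ARID1A_WT libraries it was 7.11 and 6.67 in region 1 and 6.89 and 5.90 in region 2. It was 3.28 and 3.47 in region 3 and 3.66 and 3.73 in region 4. Peaks of these libraries covered 63.0% and 63.5% of region 1. The scram values in regions 3 and 4, given above, were also higher than those of vector 3. Vector 3 also held 10 peaks with a fold enrichment of at least 9 that none of the other 5 lists overlapped, against 0 to 3 in each of those lists. Of these, 6 lay in 1 cluster at chr6:157405024-157511341, where hg19 places ARID1B as background, with a fold enrichment of 9.87 to 23.2. Values without vector 3 are given beside the comparisons that use it.

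The lists are the authors' MACS2 peak calls and hold no read counts, so sequencing depth is unknown. The scram lists held 28931 and 36160 peaks, and the vector lists held 45286, 49528, 24573 and 28353. To compare lists of unequal length, each was trimmed to its 24527 most significant peaks by -log10 p, the length of the shortest (vector 3). In these equal-length lists the median peak width was 756 and 859 bp in the scram libraries and 911, 1023, 682 and 794 bp in vector 1 to 4. Both scram values lay inside the range of the vector libraries. The median fold enrichment was 5.84 and 6.48 in the scram libraries and 6.19, 5.75, 5.66 and 6.03 in the vector libraries, and the groups overlapped. The difference of the group means was -45 bp for width (exact permutation p = 0.8, two-sided) and 0.25 for fold enrichment (exact permutation p = 0.4). For 2 libraries against 4 there are 15 splits, and this two-sided p cannot be below 2 in 15. Without vector 3 these differences were -102 bp (exact permutation p = 0.4) and 0.17 (exact permutation p = 0.6).

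Most open regions were shared by the scram and the vector libraries. Peaks that overlapped by at least 1 bp were merged, and 27456 regions were called by at least 2 of the 6 equal-length lists. All 6 lists called 18528 of them (67.5%). Regions in both scram lists and in no vector list numbered 219, or 0.798% of the regions. Regions in all 4 vector lists and in neither scram list numbered 147, or 0.535%. Without vector 3 the counts were 336 and 277, and without vector 4 they were 383 and 288. In the whole lists 200 of 43602 regions (0.459%) were scram-only and 86 (0.197%) were vector-only.

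These counts were read against the differences among the vector libraries. Both scram lists called 1079 regions (3.93%) that vector 1 and 2 both lacked, and vector 1 and 2 called 1156 (4.21%) that both scram lists lacked. Against vector 3 and 4, the numbers were 710 (2.59%) and 566 (2.06%). Between the 2 vector pairs themselves, 1534 regions (5.59%) were called by vector 1 and 2 only and 1260 (4.59%) by vector 3 and 4 only. The vector pairs, which carry the same construct label and different date codes, thus differed at 10.2% of the regions, the scram pair and vector 1 and 2 at 8.14%, and the scram pair and vector 3 and 4 at 4.65%. With vector 4 alone in place of vector 3 and 4, both scram lists called 1223 regions (4.45%) that it lacked and lacked 871 (3.17%) that it called, and for vector 1 and 2 these numbers were 2203 (8.02%) and 1722 (6.27%). In whole lists, of 43602 regions, the counts went with list length. The scram pair alone called 278 (0.638%) and vector 1 and 2 alone 7880 (18.1%), the scram pair alone 2151 (4.93%) and vector 3 and 4 alone 100 (0.229%), and between the vector pairs the counts were 13131 (30.1%) and 51 (0.117%).

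**Figure D2:**
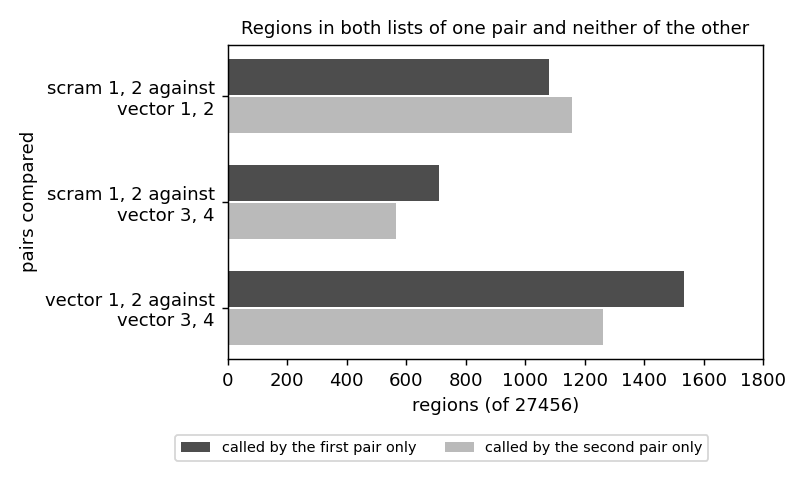
Number of the 27456 regions called by both lists of one pair of libraries and by neither list of the other pair, in equal-length lists. The vector pairs differ from each other by 1534 and 1260 regions, more than the scram pair differs from either of them.

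Single libraries were compared in the same way. Set against 3 vector libraries, a scram library called 348 to 537 regions (median 437, 8 values) that all 3 lacked. A vector library set against the other 3 called 231 to 462 such regions (median 343). A scram library lacked 443 to 757 regions (median 549.5) that all 3 called, and a vector library lacked 325 to 1432 (median 604). The 1432 belonged to vector 3, and without that library as the one set apart the highest was 669. The pooled ranges of both groups overlapped in both directions. Against the same 3 vector libraries, however, both scram libraries called more such regions than the vector library set apart in all 4 arrangements, for example 381 and 456 against 314 for vector 1 and 348 and 384 against 231 for vector 2. For vector 3 the values were 509 and 418 against 372, and for vector 4 they were 537 and 527 against 462. The 8 values share 2 scram libraries, and this pattern was not tested. At least 2 of the 6 lists had to call a region, and this rule favours higher scram counts. Regions called by 1 vector library alone were dropped, whereas the 219 scram-only regions entered every scram value. The pattern therefore cannot show that the scram libraries lay further out.

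The overlap of whole region sets was measured with the Jaccard index, the regions that 2 lists share over the regions that either calls. Scram 1 had an index of 0.809, 0.815, 0.835 and 0.860 with vector 1 to 4, and scram 2 had 0.839, 0.837, 0.807 and 0.850. The 6 vector pairs ranged from 0.773 (vector 1 with 3) to 0.906 (vector 1 with 2). Every scram-vector pair lay inside the range of the vector pairs, as did the scram pair itself at 0.872. The mean was 0.832 ± 0.0194 (SD, 8 pairs) between the groups and 0.821 ± 0.0486 (SD, 6 pairs) within the vector group. The difference of 0.0110 was within the spread (exact permutation p = 0.733, two-sided, 15 splits). Without vector 3 the sign turned and the difference was -0.00489 (exact permutation p = 0.9).

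**Figure D3:**
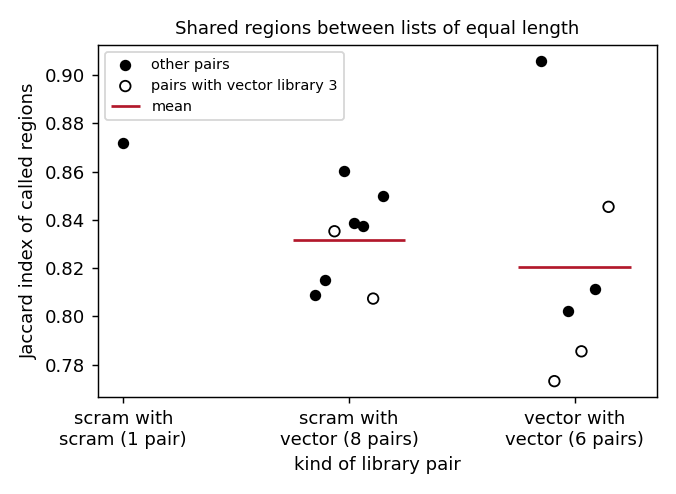
Jaccard index of called regions for each pair of the 6 equal-length lists, by kind of pair, with the mean as a line and pairs that contain vector 3 as open circles. The 8 scram-vector pairs (0.807 to 0.860) lie inside the range of the 6 vector-vector pairs (0.773 to 0.906).

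Scram-only regions were weak and narrow. Their median width was 411 bp, against 1264 bp for regions in all 6 lists. Regions are merged peaks, so those merged over 6 lists can be wider for that reason alone. Of the 219, 205 (93.6%) had a mean scram rank in the last quartile of the list, where rank 1 is the most significant peak. Median widths were 496.5 bp for regions of vector 1 and 2 only and 734 bp for those of vector 3 and 4 only. Of these, 71.6% and 77.5% had a mean rank in the last quartile. Weak and narrow regions of 1 pair thus also occurred among the vector libraries. Only 1 of the 219 scram-only regions had a mean rank better than 12263, the middle of the list. It lay at chr10:86004230-86005064, with rank 10080 and a fold enrichment of 5.92 in scram 1 and rank 14113 and 5.21 in scram 2. No vector list called it even at full length, and all 22 libraries of the other constructs did.

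Most of the other leading scram-only regions were also found in vector lists below the length used. The next was chr1:17858148-17858955, with ranks 15612 and 13366 in the scram lists and fold enrichments of 5.15 and 6.50. Vector 1, 2 and 4 called it only in the whole lists, at 3.79, 3.58 and 3.91, and vector 3 did not call it. The third, chr20:50073087-50073578, ranked 16573 and 12715 in the scram lists (fold enrichment 5.90 and 8.60) and was called at full length by vector 1 and 2 at 4.92 and 3.88. All 22 libraries of the other constructs called both of these regions. Among the 10 best-ranked scram-only regions, 9 were called by 1 to 3 vector libraries at full length.

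A subset of 19 scram-only regions was in no vector list at full length, and most other construct libraries called most of them. Both ARID1A_WT libraries called all 19, and both ARID1B_WT libraries called 18. The 8 libraries of the constructs that share the date codes of vector 1 and vector 2 called 18 or 19 of them. The lowest counts were those of ARID1A_Y42S, whose libraries called 15 and 8, and ARID1A_DDX4, whose libraries called 11 and 10. After the chromosome 10 region, the best-ranked of the 19 were chr17:48716369-48717084 (fold enrichment 4.69 and 6.07 in scram 1 and 2) and chr4:95378877-95379189 (5.66 and 5.79). As background, the whole lists of ARID1A_WT called 97.4% and 93.8% of all 27456 regions, those of ARID1B_WT 89.8% and 87.2%, those of ARID1A_Y42S 87.5% and 66.2% and those of ARID1A_DDX4 70.8% and 76.9%. Of all 219 scram-only regions, the whole lists of ARID1A_WT called 97.3% and 78.5% and those of ARID1B_WT 71.2% and 63.9%. Those of ARID1A_Y42S called 54.3% and 15.5% and those of ARID1A_DDX4 31.5% and 36.5%. High counts among the 19 are thus near the share of all regions but above that of the 219. Whether they are unusual was not tested. Without vector 3 the subset had 23 regions, of which ARID1A_WT called 23 and 22 and ARID1B_WT 20 each.

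Vector-only regions, which are merged over 4 lists rather than 2, were wider, with a median of 853 bp. Of the 147, 106 (72.1%) ranked in the last quartile of the vector lists. At full length scram lists called most of them, since 91 were in both and 20 in neither. The best-ranked was chr10:122656274-122657283, with ranks 2774, 3132, 18012 and 13729 and fold enrichments of 6.96, 6.62, 5.69 and 7.14 in vector 1 to 4. Both scram lists called it at full length, at 4.71 and 6.28. The fold enrichment of scram 2 lay inside the range of the vector libraries. The next, chr3:169480813-169481059, is 247 bp wide and was in neither scram list at full length. Its ranks in vector 1 to 4 were 11808, 12510, 12663 and 10599, and its fold enrichments were 5.06, 4.54, 5.54 and 5.80.

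The 20 vector-only regions that no scram list held at full length were called in varying numbers by the other constructs. The 8 construct libraries with the codes of vector 1 and 2 called 8 to 19 of the 20, the 4 with the code of vector 3 and 4 called 3 to 6, the 8 of the construct-only code with ARID1A_Y42S called 1 to 8, and the 2 ARID1A_DDX4 libraries called 4 and 10. As background, the whole lists of these 4 groups called 93.8% to 99.5%, 86.7% to 90.3%, 66.2% to 89.8%, and 70.8% and 76.9% of all 27456 regions. Of the 147 vector-only regions they called 82.3% to 99.3%, 68.0% to 75.5%, 40.1% to 81.6%, and 37.4% and 52.4%. The codes of vector 1 and 2 hold ARID1A constructs and that of vector 3 and 4 holds ARID1B constructs. Code and protein cannot be told apart between these codes. The code with ARID1A_Y42S also holds ARID1B constructs. There, ARID1A_Y42S called 6 and 5 of the 20 and the ARID1B constructs 1 to 8. List lengths differ as well, and the parts of code and protein were not tested. Without vector 3 the subset had 71 regions, of which ARID1A_WT called 56 and 38 (78.9% and 53.5%) and ARID1B_WT 26 and 19 (36.6% and 26.8%). The shares of all 27456 regions that these wild-type lists call are given above. Narrow examples were chr7:129711923-129712286, with fold enrichments of 3.09, 2.95, 4.11 and 3.63 in vector 1 to 4, and chr8:119427246-119427615, with 7.58, 8.36, 7.75 and 6.99.

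Regions that both groups called were compared by rank. In the 21665 regions present in all 6 whole lists, the rank by -log10 p within each library was turned into a normal score and fitted with limma. No region passed an adjusted p of 0.05 (0% called, smallest adjusted p = 0.208 with limma and Benjamini-Hochberg), while 1233 regions (5.69%) had an unadjusted p under 0.05. The alternatives to this fit gave 0 calls except those that follow. Without vector 3, 1 region passed, chr3:143791526-143792729, which ranked 11853 and 13090 in the scram libraries, 21618, 21562 and 21524 in vector 1, 2 and 4, and 18654 in vector 3. With vector 1 and 2 and vector 3 and 4 as separate groups, an alternative added after seeing the data, 75 regions ranked higher and 92 lower in the scram libraries than in the mean of the vector groups (0.771% called). Without vector 3 that fit gave 186 higher and 176 lower (1.67%), with vector 4 assumed to vary like the other groups. With replicate number as a block, which the labels' numbers do not warrant, 1708 regions passed (7.88%), and only vector 1 and 2 then enter the contrast.

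In that fit with 3 groups, the vector pairs differed from each other at 1159 regions (5.35%). The scram pair differed from vector 1 and 2 at 803 regions (3.71%), 475 ranked higher and 328 lower. Against vector 3 and 4 it differed at 0 regions (0%), with a smallest adjusted p of 0.0594 from limma and 2234 regions at an unadjusted p under 0.05. Without vector 3, vector 1 and 2 differed from vector 4 at 1085 regions (5.01%), the scram pair differed from vector 1 and 2 at 1415 (6.53%), and it differed from vector 4 at 10 (0.0462%). The order of the first 2 counts thus turned. These 3 comparisons share libraries, and whether their counts differ was not tested.

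The regions with the lowest p values had scores that did not overlap between the groups, although none passed the adjustment. They were chosen by p on these same scores, so the lack of overlap follows from the choice. The region chr8:81279124-81280008 ranked 8592 and 11999 of 21665 in the scram libraries and 20156, 20693, 21537 and 20974 in vector 1 to 4, a score difference of 1.95 ± 0.28 (SE). Its fold enrichment was 8.25 and 7.06 in the scram and 5.98, 5.08, 4.25 and 4.86 in the vector libraries. Both scram values lay above all 4 vector values. The region chr5:153338712-153339736 ranked 13212 and 13299 against 20083, 19807, 19834 and 19734, a difference of 1.10 ± 0.15 (SE). The other 3 that ranked higher were chr6:113311497-113313043, chr7:13959556-13960289 and chr13:80478952-80480180, with differences of 1.34, 1.26 and 1.19.

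In the other direction, chr5:55860096-55861741 ranked 20539 and 21237 in the scram libraries and 15245, 13963, 13550 and 16391 in vector 1 to 4, a difference of -1.36 ± 0.19 (SE). Its fold enrichment was 3.15 and 2.89 in the scram and 3.45, 3.36, 5.05 and 3.89 in the vector libraries. The region chr11:65246356-65247449 was near the bottom of both scram lists, at ranks 21642 and 21631, and ranked 18915, 18904, 20996 and 20006 in the vector lists. Its score difference was -1.61 ± 0.23 (SE). By fold enrichment 3 of the 5 regions in this direction overlapped between the groups, for example chr2:150976626-150977516, with 3.89 and 4.52 in the scram and 4.79, 4.38, 5.27 and 5.32 in the vector libraries. When regions were ranked by fold enrichment the smallest adjusted p of the limma fit was 0.99994. The other 3 by rank were chr5:92638182-92639377, the chromosome 2 region and chr1:244898602-244899715, with differences of -1.52, -1.28 and -1.13. The adjusted p of these 10 regions was 0.208 to 0.290 with limma.

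A further question was whether scrambled ARID1A opened the regions that wild-type protein opened. Regions gained with ARID1A_WT were those in both of its equal-length lists and in neither vector 1 nor vector 2, which share its date codes, and they numbered 4638 of 35388 (13.1%). Regions gained with ARID1B_WT were those in both of its lists and in neither vector 3 nor vector 4, and they numbered 6097 (17.2%). The background was read in the vector pair that had not chosen the set. Scram 1 and 2 called 6.30% and 5.11% of the ARID1A_WT set, and vector 3 and 4 called 4.48% and 3.58%. Of the ARID1B_WT set, the scram libraries called 3.12% and 2.85%, and vector 1 and 2 called 2.43% each.

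Both scram libraries thus lay above both scored vector libraries in each set, by 1.67 and 0.558 percentage points on average. The exact permutation p was 0.333 (two-sided) in both, the smallest that 2 libraries against 2 can give. Without vector 3 the differences were 2.12 and 0.477 points. The level was far below that of the other wild-type protein. ARID1B_WT called 74.6% ± 0.457 (SD, n = 2) of the ARID1A_WT set, and ARID1A_WT called 58.2% ± 0.0928 (SD, n = 2) of the ARID1B_WT set. The direction in the ARID1B_WT set turned under 5 alternatives, among them the whole lists (-5.81 points), where vector 1 and 2 have the longer lists, and in the ARID1A_WT set under 1 (-0.839 points with lists cut to the same covered length).

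The scram libraries exceeded the scored vector libraries by most in the strongest gained regions. This division was added after seeing the data. In the quartile of the ARID1A_WT set with the best mean wild-type rank, scram 1 and 2 called 10.9% and 9.40% of 1160 regions, and vector 3 and 4 called 4.48% and 3.79%. The scram mean was 2.45 times the vector mean (10.1% ± 1.04 against 4.14% ± 0.488, SD, n = 2 each). In the weakest quartile the order turned, with 4.92% and 3.97% in the scram and 5.44% and 4.31% in the vector libraries, and the ranges overlapped. In the strongest quartile of the ARID1B_WT set the values were 4.66% and 4.39% against 1.51% and 1.38% of 1525 regions, and in its weakest quartile 2.95% and 3.22% against 4.33% and 4.13%. The exact permutation p of each strongest quartile was 0.333, the smallest possible.

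**Figure D4:**
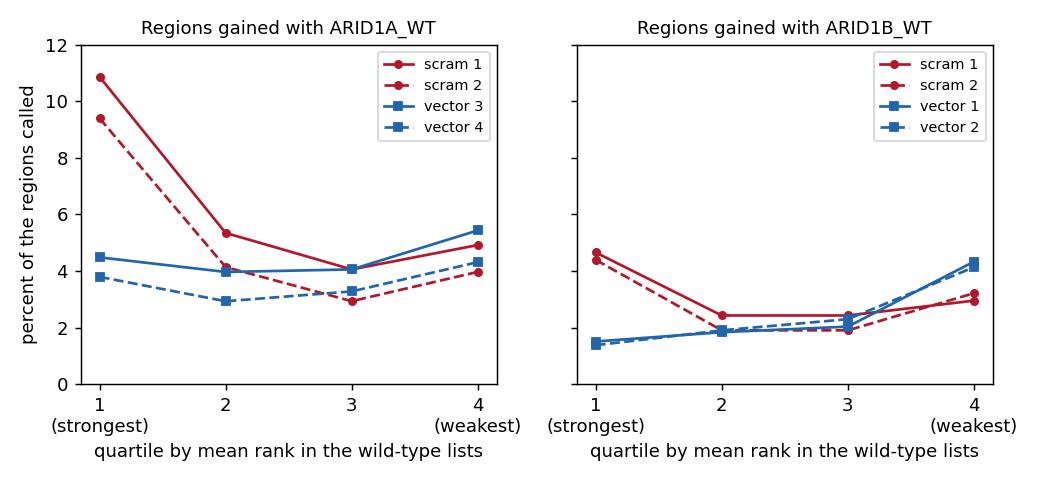
Percent of the regions gained with ARID1A_WT (left) and ARID1B_WT (right) that each scram library and each vector library outside the choice of the set calls, by quartile of mean rank in the wild-type lists. In quartile 1 both scram lines lie above both vector lines in both sets (10.9% and 9.40% against 4.48% and 3.79% on the left), and in quartile 4 the scram mean lies below the vector mean.

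The difference in the strongest quartile of the ARID1A_WT set was 5.99 points, 6.34 without vector 3, and it kept its direction under each alternative run, with 1.32 points in lists of the same covered length as the lowest. In the ARID1B_WT set it was 3.08 points, 3.37 without vector 3, and it turned to -2.09 in whole lists, -0.61 in lists of 12263 peaks and -1.998 with a -log10 q of at least 5 and no trimming. In whole lists, scram 1 and 2 called 25.9% and 44.0% of the strongest ARID1A_WT quartile fixed above, and vector 3 and 4 called 4.48% and 8.62%, with list lengths as given. For the strongest ARID1B_WT quartile, the whole lists of scram 1 and 2 called 13.7% and 28.3%, and those of vector 1 and 2, which are longer, 14.6% and 16.7%.

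The 5 best-ranked gained regions of each set show these calls region by region. The best-ranked region gained with ARID1A_WT was chr6:15504422-15505918, with ranks 509 and 815 and fold enrichments of 4.86 and 4.70 in the wild-type libraries. The scram libraries called it at ranks 19751 and 22452, with fold enrichments of 4.26 and 4.61, and no vector list held it at any length. Its fold enrichment was thus close to that with ARID1A_WT while its rank was lower. The second, chr5:141289604-141290291, had ranks 475 and 1385 with ARID1A_WT and 728 and 818 with ARID1B_WT. Scram 1 and 2 called it only in the whole lists, at a fold enrichment of 3.76 and 4.39 against 8.06 and 7.21 with ARID1A_WT, and no vector list held it.

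The third was chr8:81279035-81280168, which contains the chromosome 8 region of the rank fit. It had ranks 1380 and 765 with ARID1A_WT, 8610 and 12047 with the scram construct and 24166 in vector 3, and the other vector libraries called it only in the whole lists. The fourth, chr1:17858064-17858983, contains the second of the scram-only regions above and ranked 1187 and 1061 with ARID1A_WT. The fifth, chr5:38783130-38783846, ranked 2377 and 1467 with ARID1A_WT and was in the whole list of scram 2 alone, at a fold enrichment of 5.55. All 5 had a peak in at least 1 scram list at full length. The 5 best-ranked regions gained with ARID1B_WT were outside both equal-length scram lists. At full length scram 2 called all 5, and scram 1 called 2 of them. The fifth, chr2:86299256-86300265, was also in the whole list of vector 2. As background, the whole lists of scram 1 and 2 called 14.7% and 26.9% of the ARID1A_WT set, and those of vector 3 and 4 called 4.48% and 7.65%. Of the ARID1B_WT set the scram lists called 8.04% and 16.6%, and the longer lists of vector 1 and 2 called 12.6% and 15.0%. The best-ranked regions thus do not stand for the sets.

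Most regions lost with the wild-type proteins were still called in the scram libraries, as in the scored vector libraries. Lost regions were in both vector lists that share the date codes and in neither wild-type list, and numbered 3547 (10% of 35388) for ARID1A_WT and 4347 (12.3%) for ARID1B_WT. Scram 1 and 2 called 60.4% and 66.4% of the first set, and vector 3 and 4 called 51.4% and 61.6%. ARID1B_WT called 10.3% ± 0.239 (SD, n = 2). The scram mean was 6.92 points above the vector mean (exact permutation p = 0.667), and scram 1 lay below vector 4. Without vector 3 the difference was 1.83 points. Of the second set, the scram libraries called 81.6% and 76.8%, vector 1 and 2 called 68.2% and 72.1%, and ARID1A_WT called 31.4% ± 0.521 (SD, n = 2). That difference was 9.05 points, with both scram libraries higher (exact permutation p = 0.333, the smallest possible), and 7.28 points when vector 4 alone chose the set.

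To place the scram construct among all groups, every list was trimmed to 19433 peaks, the length of the shortest of the 28, which left 3032 regions gained and 2284 lost with ARID1A_WT. In the strongest quartile of the gained regions, the scram libraries called 6.73% and 6.46%, and vector 3 and 4 called 2.11% each. ARID1B_Block9del called 6.73% and 8.97% and ARID1A_Y42S 5.54% and 12.8%, so both scram values lay inside the ARID1A_Y42S range and at or below the lower ARID1B_Block9del library. ARID1A_DDX4 called 17.0% and 14.6%, and the means of ARID1A_CBR (a truncation mutant), ARID1A_delIDR1 and ARID1A_DBDmut were 35.0% ± 0.0933, 70.6% ± 1.31 and 77.3% ± 3.36 (SD, n = 2 each). These 4 groups lay above both scram libraries. With 2 libraries a group, no pair of groups can give an exact p below 0.333.

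In the ARID1B_WT set the vector libraries, the scram libraries, ARID1B_Block9del and ARID1A_Y42S again had the lowest group means, in that order, and the scram libraries called 3.66% and 3.86% of the strongest quartile, vector 1 and 2 called 2.12% and 2.31%, ARID1A_Y42S 3.57% and 8.97%, and ARID1B_Block9del 4.73% and 6.27%. Of the 2284 regions lost with ARID1A_WT, the scram libraries still called 59.9% and 64.0%, vector 3 and 4 called 58.4% and 62.9%, and the other constructs ranged from a mean of 7.79% (ARID1B_S320_G327del) to 57.1% (ARID1B_Block9del). The scram and vector values overlapped. Of the 3112 regions lost with ARID1B_WT, the scram libraries called 79.1% each and vector 1 and 2 called 70.4% and 72.3%, and these did not overlap. Without vector 3 in the choice the values were 73.3% and 74.9% against 68.0% and 68.4%, and in the strongest quartile of the ARID1B_WT gained regions 4.86% and 5.05% against 3.27% and 3.46%. In the ARID1A_WT set vector 4 alone gives the values above. The groups differ in date code as well as in construct, and the part of the code was not tested.

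**Figure D5:**
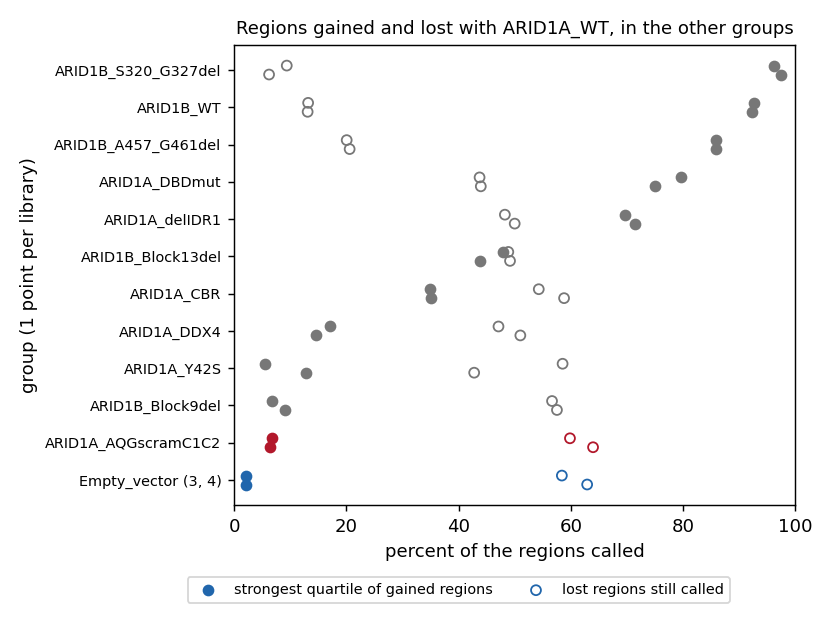
Percent of the strongest quartile of regions gained with ARID1A_WT (filled) and of regions lost with it (open) that each library calls, in lists of 19433 peaks, by group, with libraries that chose the regions left out. On gained regions the scram libraries (red, 6.73% and 6.46%) lie above vector 3 and 4 (blue, 2.11% each) and beside ARID1B_Block9del and ARID1A_Y42S, and on lost regions (59.9% and 64.0%) they overlap vector 3 and 4.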

How the data were processed

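ATAC-seq of 28 AN3CA libraries was analysed from 1 deposited broad peak list per library. The build hg19 and the tools MACS2, Bowtie2, SAMtools 0.1.19, Picard 2.8.0 and bcl2fastq are named, per the submitters' processing notes. Peak-calling options and any cut-site shift are not stated there. Each deposited peak carries a score, a fold ratio over background, a -log10 p-value and a -log10 q-value, each the authors' own. The series' design text describes CUT&Tag, while titles name ATAC-seq. No counts are given, so depth is unknown.

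Chromosomes 1 to 22 and X were used, with starts made 1-based. Peaks were ranked by -log10 p, trimmed to equal number and merged (1 bp overlap). Regions called in at least 2 lists were kept. Exact permutation tests used scipy 1.17.1. Ranks were fitted with limma 3.58.1. Region counting and limma were tested on simulated data. The members, rules and lists were chosen with earlier results of these data known. Named regions were the 10 best-ranked in 1 group only, the 5 with the lowest p per direction, and the 5 best-ranked gained regions, the last chosen later. Alternatives were list length, ranking, overlap, threshold, left-out libraries and date-code pairs. The gene lists and cell type markers drawn up beforehand need hg19 gene positions and were not analysed here.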

Additional observations from a re-analysis of the deposited data

Results flagged for a closer look

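Vector 3 stood apart from the other 3 vector libraries in the share of the 4 chromosome 1 regions that its peaks cover. In each region the gap between vector 3 and the nearest of the others, over the range of the 4, passed Dixon's 95% limit. The values of vector 3 were 100%, 100%, 65.5% and 96.8%, against at most 12.7% in the others. Chance flags about 1 in 20 groups of this kind. That rate does not carry over here, since the 4 regions neighbour each other and vector 3 had been seen to differ before the rule that chose them was written. No vector list took part in that rule.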

How the results depend on the processing

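The scram-only count (219) and the vector-only count (147) followed the length and choice of lists. They were 82 and 58 at 12263 peaks per list, 94 and 30 at the same covered length, and 128 and 52 with a -log10 q of at least 5. The vector-only count was 86 in whole lists, 37 when ranking by fold enrichment and 78 when peaks had to cover 50% of a region. Against vector 1 and 2 only the counts were 1079 and 1156, and against vector 3 and 4 only 710 and 566, with Jaccard differences of -0.0811 and -0.00723. Leaving out 1 vector library gave 282 to 383 scram-only regions. Leaving out 1 scram library kept this count at 219, which was fixed in advance. Regions needed calls from at least 2 of the 6 lists. Over all left-out libraries there were 175 to 387 vector-only regions and Jaccard differences of -0.00489 to 0.0264. Width differences were -102 to 11.8 bp and fold differences -0.069 to 0.57. Ranking by fold turned the width difference to 0.25 bp. The ARID1B_WT gained difference turned to -5.81 points in whole lists, -0.612 at 12263 peaks, -0.174 by fold, -5.22 at the stricter q and -1.93 at 50% overlap. Its strongest quartile turned to -2.09, -0.611 and -1.998 in whole lists, at 12263 peaks and at the stricter q. The ARID1A_WT difference turned to -0.839 at the same covered length. The cause of these changes was not tested.

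The rank fit gave 0 to 1 calls when 1 library was left out and 167 with 3 groups, or 362 with 3 groups and no vector 3. With replicate number as a block it gave 1708 calls (7.88%), 912 ranked higher and 796 lower. The numbers share no stated source, and the block leaves only vector 1 and 2 in the contrast. Same-numbered deviations from the group mean correlated at -0.115 and 0.116 over regions. These values cannot decide whether the numbers pair the libraries. Deviations of 2 scram libraries from their own mean are mirror images, and vector 1 and 2 correlated alike with scram 1, at -0.115 and -0.116. Unknown depth limits every absent call, since a list shows nothing below its threshold.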
